A study of Mus musculus with 6 samples.

Results

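The tricarboxylic acid (TCA) cycle was followed through 9 genes, Cs, Idh2, Idh3a, Ogdh, Sucla2, Suclg1, Sdha, Fh1 and Mdh2, which encode enzymes of the mitochondrial cycle. They were found in the count table by the Ensembl gene identifiers that carry these symbols, and they are 9 of its 38293 genes. The libraries came from bulk heart tissue taken 14 days after permanent occlusion of the left anterior descending artery, which causes a myocardial infarction (MI), in 3 mice labelled WT and 3 labelled Zeb2 cKO. The mice were adult males of the backcrossed C57BL/6J strain, and every mouse had been infarcted. Zeb2 cKO mice carried the floxed Zeb2 alleles and a Cre recombinase driven by the cardiomyocyte promoter of Myh6, whereas the methods give the WT mice as Zeb2 fl/fl. The labels place the tissue in the border region of the infarct and the methods in the remote zone. RNA came from all cells of the tissue, so fewer cells of a type and less RNA per cell cannot be told apart.

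The TCA cycle joins acetyl-CoA to oxaloacetate and oxidises the product stepwise back to oxaloacetate. The electrons it releases enter the respiratory chain as NADH or through succinate dehydrogenase. Cardiomyocytes are densely packed with mitochondria and obtain most of their acetyl-CoA from fatty acids. Zeb2 encodes a zinc finger transcription factor that binds E-box sequences.

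Each library held between 37288174 and 51136331 counts, of which 60.55% to 67.03% fell on the mitochondrially encoded genes and 14301225 to 19024394 lay outside them. The cycle enzymes are encoded in the nucleus, and the 9 genes together received between 58018 and 134906 counts per library. Zeb2, the targeted gene, was at 61.3, 116 and 71.9 CPM (read counts relative to library size, TMM-normalized) in WT replicates 1, 2 and 3, and at 59.6, 72.6 and 66.5 CPM in Zeb2 cKO replicates 1, 2 and 3. The groups overlapped and the log2 fold change of Zeb2 (Zeb2 cKO over WT) was -0.33 ± 0.25 (SE, edgeR adjusted p = 0.956), so the tissue level of Zeb2 did not separate the labels. WT replicate 2 stood apart from the other libraries in cell type markers. All 10 fibroblast and matrix markers and all 10 macrophage markers were highest in it, and 12 of 13 cardiomyocyte markers were lowest in it.

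Promoter sequence, from 250 bases before to 50 bases after the start of transcription, was held for 8 of the 9 genes (RefSeq, GRCm38.p6), with 13 windows in all. Stretches of 3 promoters are shown because their letter patterns belong to the factor that was deleted or to a regulator known for mitochondrial genes: the ZEB box CACCTG, and the NRF1 pattern GCGCANGCG. The capitals mark matches on either strand, and each stretch reads 5′ to 3′ along the strand of its gene.
Sdha, chr13:74350281-74350340, minus strand, from -100 to -41 relative to the start: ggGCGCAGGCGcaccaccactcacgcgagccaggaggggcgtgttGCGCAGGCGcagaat
Sucla2, chr14:73552760-73552789, plus strand: tgcgtctctgCGCCTGCGCggtgcccaggg
Mdh2, chr5:135778621-135778650, plus strand: ctcgcgagatCAGGTGgctctggaccgggc
The NRF1 pattern was in the windows of 3 members, Sdha, Sucla2 and Ogdh, and in 6.25% of 32851 promoter windows. The ZEB box was in those of 2 members, Mdh2 and Ogdh, and in 20.2% of all windows. Members are counted by gene and the percentages by window, and Ogdh alone had 6 of the 13 windows, so the numbers are not compared. The pattern of estrogen-related receptors, TNAAGGTCA, was in 1.28% of all windows and that of GABP, CCGGAAG, in 8.86%. Neither was in any of the 13 windows of the 8 genes, and no window was held for Idh3a. No match of a pattern overlapped that of another. A match gives the letters alone and is no measure of binding.

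All 9 transcripts had a higher mean in Zeb2 cKO than in WT, and all 9 were lowest in the same library, WT replicate 2. The log2 fold changes ran from 0.07 (Mdh2) to 0.28 (Fh1), with a median of 0.23 beside -0.01 over the 14746 genes tested. In edgeR's quasi-likelihood test 0 of the 9 passed an adjusted p of 0.05 (Benjamini-Hochberg), and the background was 0% of all genes tested. DESeq2 called 0 of the 9 as well, and at an unadjusted p under 0.05 there were 0 of the 9 beside 1.9% of all genes. A log2 fold change over 0.2, the fold used in the study, was found for 6 of the 9 beside 15.9% of all genes, and one under -0.2 for 0 of the 9 beside 22.6%. No member had groups that did not overlap, in either direction, beside 3.39% of all genes higher in every Zeb2 cKO library and 2.97% lower in every one.

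**Figure D1:**
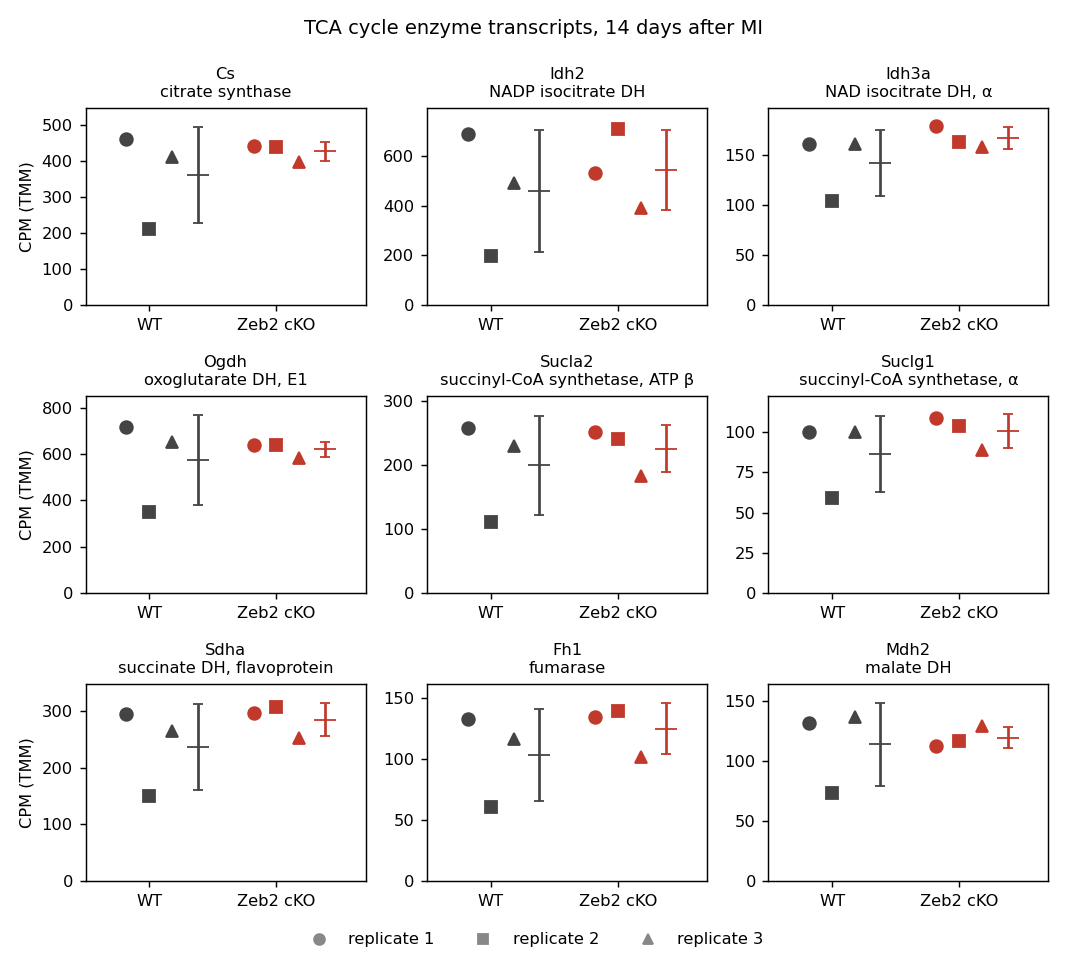
CPM (read counts relative to library size, TMM-normalized, linear axis from 0) of the 9 enzymes in each WT library (dark) and Zeb2 cKO library (red), by replicate number, with the mean ± SD of each group (n = 3) beside the points (DH, dehydrogenase). WT replicate 2 (dark square) is the lowest of the 6 libraries in all 9 panels.

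The cycle begins with citrate synthase, the product of Cs, which condenses acetyl-CoA with oxaloacetate. Cs (ENSMUSG00000005683, chr10:128337734-128362479, plus strand of GRCm38) was at 460.2, 211.1 and 410.3 CPM in WT replicates 1 to 3 and at 441.8, 439.1 and 395.8 CPM in Zeb2 cKO replicates 1 to 3. Every library but WT replicate 2 lay between 395.8 and 460.2 CPM, and the groups overlapped. The means were 360.5 ± 131.8 and 425.6 ± 25.8 CPM (SD, n = 3 each). The log2 fold change was 0.24 ± 0.29 (SE, 95% interval -0.46 to 0.94, edgeR adjusted p = 0.956, exact permutation p = 0.7). Without WT replicate 2 it was -0.03.

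Isocitrate is oxidised in mitochondria by an NAD-dependent enzyme, whose catalytic subunit is Idh3a, and by the NADP-dependent enzyme Idh2, a source of NADPH. Idh2 (ENSMUSG00000030541, chr7:80094846-80115392, minus strand) varied most of the 9, at 688.8, 199.7 and 491 CPM in WT and 532.9, 710.8 and 389.3 CPM in Zeb2 cKO. Its lowest library was WT replicate 2 and its highest Zeb2 cKO replicate 2, and the other 4 libraries were spread between them. Its log2 fold change was 0.24 ± 0.45 (SE, edgeR adjusted p = 0.956, exact permutation p = 0.6), and -0.11 without WT replicate 2. Idh3a (ENSMUSG00000032279, chr9:54586334-54604661, plus strand) was at 161.1, 104.3 and 161 CPM in WT and 179.1, 163.5 and 158.5 CPM in Zeb2 cKO. Idh3a varied least outside WT replicate 2, with a fold of 1.13 between the highest and lowest of the other 5 libraries, against 1.83 for Idh2. The log2 fold change of Idh3a was 0.23 ± 0.20 (SE), with the smallest unadjusted p of the 9 (edgeR p = 0.282, exact permutation p = 0.4), and it was 0.06 without WT replicate 2.

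Oxoglutarate dehydrogenase, for which Ogdh encodes the subunit that binds thiamine diphosphate, forms succinyl-CoA. Ogdh (ENSMUSG00000020456, chr11:6291633-6356642, plus strand) was at 716.3, 351.9 and 653.2 CPM in WT and 638.5, 640.5 and 583.8 CPM in Zeb2 cKO. The log2 fold change was 0.11 ± 0.28 (SE, edgeR adjusted p = 0.965, exact permutation p = 1). The remaining WT libraries, 1 and 3, were both above every Zeb2 cKO library. Without WT replicate 2 the log2 fold change was -0.14 (95% interval -0.41 to 0.13, exact permutation p = 0.1, the smallest that 2 libraries against 3 can give).

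Succinyl-CoA synthetase conserves the energy of succinyl-CoA as a nucleotide triphosphate. Suclg1 encodes its shared alpha subunit and Sucla2 the beta subunit of the ATP-forming enzyme. Sucla2 (ENSMUSG00000022110, chr14:73525319-73596142, plus strand) was at 258.2, 111.1 and 229.9 CPM in WT and 251.9, 241.3 and 183.8 CPM in Zeb2 cKO. Suclg1 (ENSMUSG00000052738, chr6:73248382-73276911, plus strand) was at 100.2, 59.1 and 100 CPM in WT and 108.6, 103.9 and 88.6 CPM in Zeb2 cKO. For both subunits the lowest Zeb2 cKO library was replicate 3, and it lay above WT replicate 2 and below WT replicates 1 and 3. The log2 fold changes were 0.18 ± 0.32 for Sucla2 (SE, exact permutation p = 0.7) and 0.22 ± 0.23 for Suclg1 (SE, exact permutation p = 0.5), both at an edgeR adjusted p of 0.956. Without WT replicate 2 they were -0.11 and 0.01.

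Succinate dehydrogenase is also complex II of the respiratory chain, and Sdha encodes its flavoprotein subunit. Sdha (ENSMUSG00000021577, chr13:74322254-74350280, minus strand) was at 294.3, 150.4 and 264.1 CPM in WT and 296.9, 306 and 251.4 CPM in Zeb2 cKO. Fumarase, the product of Fh1, hydrates fumarate to malate. Fh1 (ENSMUSG00000026526, chr1:175600374-175625635, minus strand) was at 132.2, 60.6 and 116.2 CPM in WT and 133.8, 139.1 and 101.3 CPM in Zeb2 cKO. The highest library of both genes was Zeb2 cKO replicate 2, but Zeb2 cKO replicate 3 lay below WT replicates 1 and 3. The log2 fold changes were 0.27 ± 0.26 for Sdha and 0.28 ± 0.30 for Fh1 (SE, edgeR adjusted p = 0.956 and exact permutation p = 0.5 for both), and without WT replicate 2 they were 0.03 and 0.01.

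Malate dehydrogenase of the mitochondrion, encoded by Mdh2, regenerates oxaloacetate. Mdh2 (ENSMUSG00000019179, chr5:135778480-135790398, plus strand) was at 131.5, 73.9 and 136.5 CPM in WT and 112.5, 117.2 and 129.4 CPM in Zeb2 cKO. Unlike the other 8, it had its highest Zeb2 cKO value in replicate 3. The log2 fold change was 0.07 ± 0.24 (SE, edgeR adjusted p = 0.979, exact permutation p = 1). Without WT replicate 2 it was -0.16 (95% interval -0.40 to 0.08, exact permutation p = 0.2), and both remaining WT libraries lay above all 3 Zeb2 cKO libraries.

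WT replicate 2 held between 51.3% (Idh2) and 66.7% (Suclg1) of the CPM of the next lowest library. Against the mean of the other 5 libraries its log2 level was between -1.46 (Idh2) and -0.66 (Idh3a), where the SD of those 5 was 0.36 for Idh2 and between 0.07 and 0.20 for the others. WT replicate 2 was the lowest library in 34.6% of all genes tested. Without it 4 of the 9 log2 fold changes were above 0, their median was -0.03 and they ran from -0.16 (Mdh2) to 0.06 (Idh3a). None of the 9 was then past 0.2 in either direction, beside 14.2% of all genes over 0.2 and 11.7% under -0.2. Ogdh and Mdh2 were lower in every Zeb2 cKO library than in WT replicates 1 and 3, which makes 2 of the 9 beside 7.22% of all genes. Leaving out any other single library kept all 9 log2 fold changes above 0. However, Idh2 fell to 0.006 without Zeb2 cKO replicate 2 and Mdh2 to 0.011 without Zeb2 cKO replicate 3. In the fits without 1 library, 0 of the 9 reached an unadjusted p of 0.05.

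**Figure D2:**
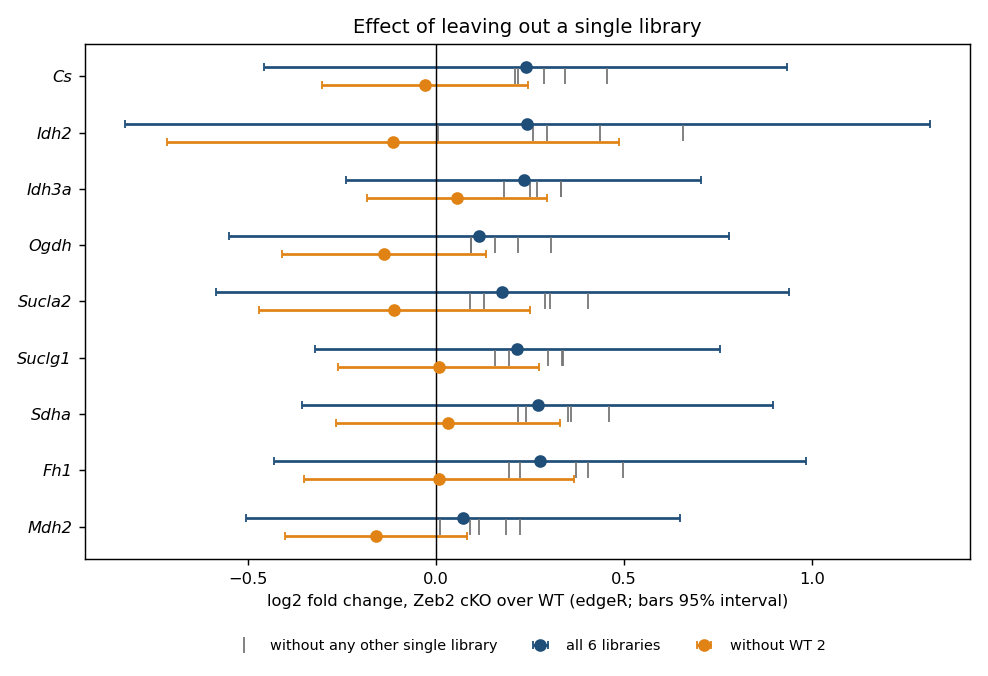
Log2 fold change of each enzyme (Zeb2 cKO over WT, edgeR) with all 6 libraries (blue) and without WT replicate 2 (orange), with 95% intervals, and with each of the other 5 libraries left out in turn (grey ticks). All intervals include 0, and the estimates without WT replicate 2 lie between -0.16 and 0.06.

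In WT replicate 2 cardiomyocyte markers were low like the enzymes, whereas fibroblast and matrix markers and macrophage markers were high. The 13 cardiomyocyte markers, such as Ttn, the giant spring protein of the sarcomere, summed to 37180 CPM in WT replicate 2 and up to 73610 CPM in the other WT libraries, and to between 60150 and 72730 CPM in Zeb2 cKO. The 10 fibroblast and matrix markers, led by the collagen gene Col3a1, summed to 10940 CPM in WT replicate 2, the lowest WT sum was 1907 CPM, and Zeb2 cKO lay between 1895 and 2633 CPM. The 10 macrophage markers, led by the lysozyme gene Lyz2, summed to 894.7 CPM in WT replicate 2, with a lowest WT sum of 225.2 CPM and a Zeb2 cKO range of 273.4 to 297.2 CPM. Their part in the enzyme values was not tested. Col3a1 was at 721.7, 4872 and 822.3 CPM in WT and 615.3, 779.2 and 903 CPM in Zeb2 cKO. Ttn was at 43300, 22880 and 41320 CPM in WT and 44090, 37160 and 36300 CPM in Zeb2 cKO. In the marker lists 0 genes passed an edgeR adjusted p of 0.05, 0 were under an unadjusted p of 0.05 and DESeq2 called 0. The tissue label was met by the defining cardiomyocyte markers, all 13 of which were tested, while only 1 of 6 skeletal muscle markers and 2 of 8 fat cell markers passed the filter on low counts. Both of the tested fat cell markers were over 0.2 and lowest in WT replicate 2. The less abundant of them lay near the floor, from 0.21 CPM there to 1.66 CPM in Zeb2 cKO replicate 1. Of 8 endothelial markers 1 was over 0.2 and 1 under -0.2, and of 5 red cell markers 0 were over 0.2 and 1 under -0.2. The 3 atrial markers summed to between 1.5 and 3.62 CPM in WT and to between 2.16 and 17.1 CPM in Zeb2 cKO, with the highest sum in Zeb2 cKO replicate 2, the library that was highest for Idh2, Sdha and Fh1.

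**Figure D3:**
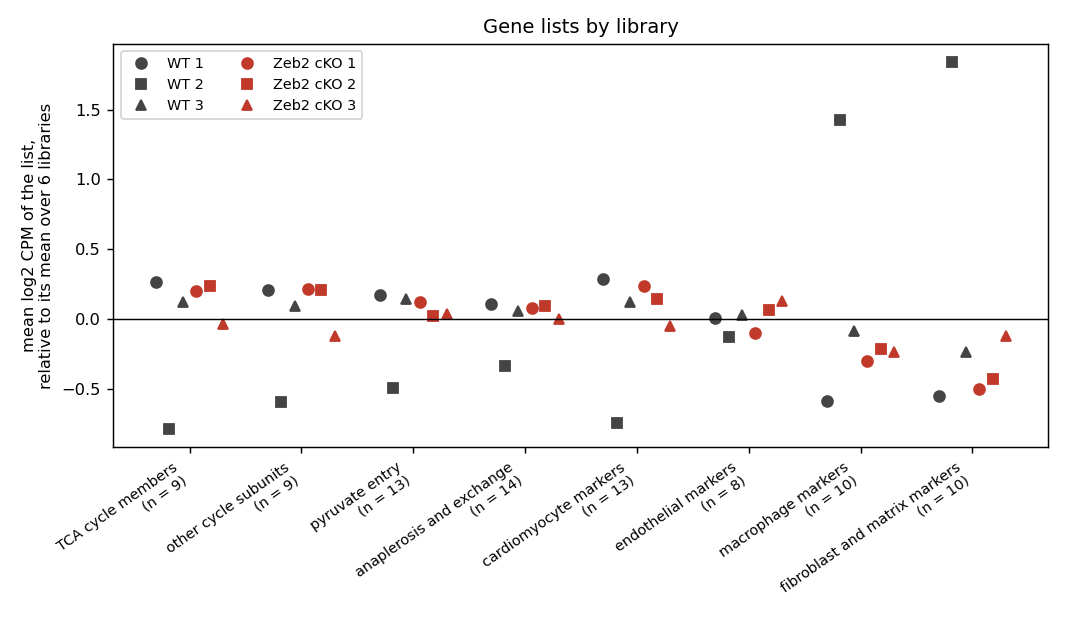
Mean log2 CPM of each gene list in each library, relative to the mean of the list over the 6 libraries (0 on the axis), for WT (dark) and Zeb2 cKO (red). WT replicate 2 is at -0.79 for the TCA cycle enzymes and -0.74 for cardiomyocyte markers, and at 1.84 for fibroblast and matrix markers and 1.43 for macrophage markers.

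Set against the cardiomyocyte markers of the same library, the enzymes moved much less between libraries. The mean log2 level of the 9 was 0.26, -0.79 and 0.12 in WT replicates 1 to 3 and 0.20, 0.23 and -0.03 in Zeb2 cKO replicates 1 to 3, relative to the mean of all 6. After subtracting the mean of the 13 markers the values were -0.03, -0.05 and -0.001 in WT and -0.04, 0.09 and 0.02 in Zeb2 cKO. WT replicate 2 was still the lowest on this scale, next to Zeb2 cKO replicate 1. Relative to the markers, Idh2 was at -0.47 in WT replicate 2 and 0.47 in Zeb2 cKO replicate 2, whereas Mdh2 was at 0.11 and -0.11 in the same libraries. The mean difference on this scale (Zeb2 cKO minus WT) ran from -0.10 for Mdh2 to 0.16 for Idh2 and was given no test.

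**Figure D4:**
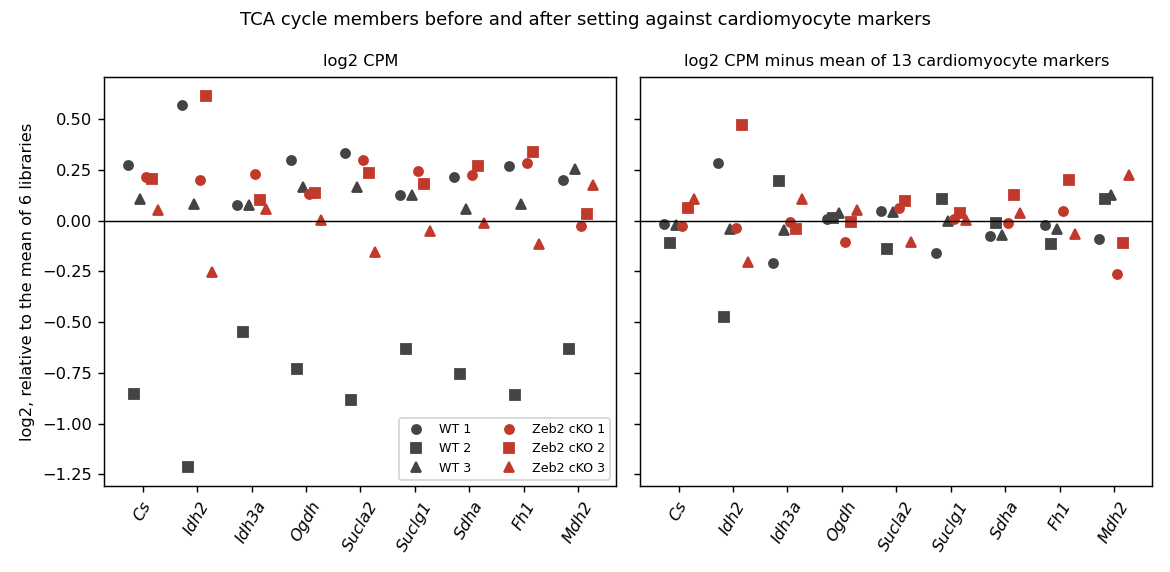
Log2 CPM of the 9 enzymes by library, relative to the mean of the 6 libraries (left) and after also subtracting the mean of 13 cardiomyocyte markers (right), for WT (dark) and Zeb2 cKO (red). On the right WT replicate 2 lies between -0.14 (Sucla2) and 0.20 (Idh3a) for the enzymes other than Idh2, and Idh2 keeps the widest spread, from -0.47 to 0.47.

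The other subunits listed for the cycle shared their lowest library with the 9 enzymes. All 9 of these subunits, among them Idh3b, Dlst, Dld, Suclg2, Sdhb and Sdhc, were lowest in WT replicate 2. Of them, 4 had a log2 fold change over 0.2 and 0 under -0.2, with a median of 0.19 and 0 called by edgeR or DESeq2, and without WT replicate 2 the median was -0.04. Sdhc, a membrane anchor of succinate dehydrogenase, was at 115.7, 65.0 and 106 CPM in WT and 131.5, 126.2 and 90.4 CPM in Zeb2 cKO. Dld, a subunit that the pyruvate and oxoglutarate complexes share, differed least between WT replicate 2 and the rest, at 77.5 CPM against 94.6 to 102.5 CPM.

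Among the genes around the cycle 0 passed an edgeR adjusted p of 0.05, with 0 under an unadjusted p of 0.05 and 0 called by DESeq2. Of the 13 genes of pyruvate entry, 1 was over 0.2 and 1 under -0.2, and 10 were lowest in WT replicate 2. Pdk4, a kinase that switches off pyruvate dehydrogenase, was at 221.5, 73 and 173.9 CPM in WT and 105.7, 117.3 and 292.2 CPM in Zeb2 cKO, a spread as wide within each group as between them. Pdk3, another such kinase, had its highest level in WT replicate 2, at 4.51 CPM against 1.33 to 2.18 CPM in the other libraries. Of 14 genes that refill the cycle or exchange its intermediates, 4 were over 0.2 and 1 under -0.2, with a median of 0.12. Slc25a1, which carries citrate out of mitochondria, was also highest in WT replicate 2, at 5.15 CPM against 2.52 to 3.18 CPM. Of 6 isoforms outside the cycle, 2 were over 0.2 and 1 under -0.2. Ogdhl, a relative of Ogdh, had the widest range, at 39.5, 4.85 and 24.4 CPM in WT and 20.6, 16.1 and 9.23 CPM in Zeb2 cKO (log2 fold change -0.58 ± 0.67, SE). Of 4 assembly factors of succinate dehydrogenase 1 was over 0.2. This was Sdhaf1, which was also the gene of these lists whose groups did not overlap, at 4.94, 4.38 and 5.29 CPM in WT and 6.72, 5.88 and 5.32 CPM in Zeb2 cKO (exact permutation p = 0.1, the smallest that 3 against 3 can give). Its edgeR adjusted p was 0.956, and another gene holds near-identical copies of 69.6% of its sequence.

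Ratios of counts within a library do not depend on its normalization, and 6 were compared. Idh2 exceeded Idh3a by between 1.91-fold and 4.35-fold in counts, with log2 ratios of 2.10, 0.94 and 1.61 in WT and 1.57, 2.12 and 1.30 in Zeb2 cKO (mean difference 0.12, exact permutation p = 0.9). The ratio thus varied most between WT replicate 2 and Zeb2 cKO replicate 2. Sdha over Sdhb, the flavoprotein over the iron-sulfur subunit, had log2 ratios of 0.36, 0.06 and 0.22 in WT and 0.36, 0.36 and 0.43 in Zeb2 cKO (mean difference 0.17, exact permutation p = 0.2). It was the ratio nearest to separating the groups, and Zeb2 cKO replicate 2 lay at the level of WT replicate 1. The difference was 0.09 without WT replicate 2 and 0.24 without WT replicate 1. Sucla2 exceeded Suclg2, the beta subunit of the GTP-forming enzyme, by 5.74-fold to 8.27-fold in counts in every library, although 38.7% of the Suclg2 transcript is shared with another gene. Mdh2 stood at 0.151 to 0.254 of the counts of its cytosolic counterpart Mdh1. Adjusted over the 6 ratios, no exact permutation p was under 0.8.

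Per kilobase of exon, the order of the 9 transcripts was largely the same in each library, but it depended on the length used. In the mean of 6 libraries Idh2 stood at 194 CPM per kb, followed by Ogdh at 109.5, Cs at 68, Sdha at 63.1, Sucla2 at 53.3, Fh1 at 33.6, Mdh2 at 32.8, Idh3a at 30.5 and Suclg1 at 20.2 CPM per kb. Each neighbour in this order was above the next in 6 of 6 libraries, except that Fh1 exceeded Mdh2 in 3 and Mdh2 exceeded Idh3a in 5. With the length of the longest transcript in place of all exons, Sdha exceeded Sucla2 in 2 libraries and Fh1 exceeded Mdh2 in 0. The mean of Fh1 then also lay below that of Idh3a, at 43.2 against 59.91 CPM per kb. Sdha and Sucla2 therefore cannot be ordered, nor can Fh1 be placed against Mdh2 and Idh3a.

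Over the 6 libraries, the log2 CPM of each enzyme was correlated with the mean of the other 8, with Pearson's r from 0.86 (Mdh2) to 0.993 (Sdha). Leaving out the 2 libraries farthest from the median, r ran from -0.53 (Mdh2) to 0.94 (Cs), so for some members the correlation rests on those libraries. The genes outside the lists with the pattern nearest to the mean of the 9 were Uqcrc1, a core subunit of respiratory complex III, Syngr2, a vesicle membrane protein, and Mpi, which interconverts fructose and mannose phosphates. Their Pearson's r was 0.999 for each over the 6 libraries and 0.94 to 0.96 without the 2 farthest, which included WT replicate 2. All genes of a library share its depth and tissue composition, and WT replicate 2 stood apart in cell type markers. No p was computed for these correlations.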

How the data were processed

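RNA depleted of ribosomal RNA was sequenced by the authors as strand-specific single-end libraries, aligned and counted per gene of Gencode M4 (GRCm38) with a STAR workflow. The authors deposited 1 table of raw counts, without normalization. The aligner's version, the strand setting and the treatment of multiply mapped reads are not given in the sources used here. The submitters' processing notes name DESeq 1.2, which was not used here. Each column matched 1 sample, 0 columns were left unmatched, and 0 rows lacked a gene name.

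From these counts, the following was computed. Symbols and coordinates came from the Gencode M21 annotation of GRCm38, by gene identifier (36429 of 38293 genes). The quasi-likelihood test of edgeR 4.0.16 (R 4.3.3, limma 3.58.1) compared the genotypes over all 6 libraries, after TMM normalization and filterByExpr (14746 genes kept). The prior count was 0.125 for log2 fold changes and 2 for log2 CPM. Adjusted p-values are Benjamini-Hochberg values over the 14746 genes. Single genes and ratios were compared with two-sided exact permutation tests (smallest p 0.1). Copies were searched with BLAST 2.17.0 (at least 75 bases at 95% identity), and none of the 9 enzymes had one. Alternatives covered scaling, the filter, mitochondrially encoded genes, DESeq2 1.42.0, a replicate block, a cardiomyocyte covariate and each library left out. The steps were tested on simulated data.

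Total counts were at least 37288174 per library, so counting error is small for the 9 enzymes. Precision was set by the variation among libraries (common biological coefficient of variation 0.244). Its source, the mice or the sampling of tissue, was not tested. The labels count separate mice but name no litter or batch. The 9 genes and all lists were chosen with earlier results of these data known, and no list is independent evidence. Genes named are the 9 enzymes, Zeb2, genes of the cycle and entry lists, the most abundant gene of a marker list and the 3 genes most correlated with the mean of the 9. The values of 1 listed gene enter the counts and medians of its list, and the gene is not reported here.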

Additional observations from a re-analysis of the deposited data

How the results depend on the processing

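None of the 9 enzymes passed an adjusted p of 0.05 or an unadjusted p of 0.05 with edgeR or DESeq2 under any alternative, while between 122 and 1134 genes of the table were under an unadjusted p of 0.05 (280 with all libraries) and DESeq2 called 2 genes, none of them an enzyme of the cycle. Scaling to total counts outside the mitochondrially encoded genes left 1 enzyme (5.14% of all genes), and scaling to every count in the table left 2 enzymes (8.21%), higher in every Zeb2 cKO library. With cardiomyocyte markers as a covariate 0 enzymes were above 0.2, beside 12.3% of all genes. Ogdh (-0.033), Sucla2 (-0.013) and Mdh2 (-0.04) turned below 0 in this fit. The cause was not tested.

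Leaving out 1 library at a time, the median log2 fold change ran from -0.03 to 0.41, the enzymes above 0.2 from 0 to 9, those higher in every Zeb2 cKO library from 0 to 4 and those lower in every one from 0 to 2. The count above 0.2 was 0 without WT replicate 2 (14.2% of all genes) and 3 without Zeb2 cKO replicate 2 (15.7%). It was 9 without WT replicate 3 (21.8%) and 8 without WT replicate 1 (26.5%). The 4 higher in every library were found without Zeb2 cKO replicate 3, beside 11.8% of all genes. By gene the log2 fold change ran from -0.03 to 0.46 (Cs), -0.11 to 0.66 (Idh2) and -0.14 to 0.31 (Ogdh). For Sucla2 it ran from -0.11 to 0.41 and for Mdh2 from -0.16 to 0.22. The other genes stayed above 0, from 0.06 to 0.33 (Idh3a) and from 0.01 to 0.34 (Suclg1). So did Sdha (0.03 to 0.46) and Fh1 (0.01 to 0.50). Each of the 9 was lowest without WT replicate 2. The difference in log2 ratio ran from -0.19 to 0.39 (Idh2 to Idh3a), -0.12 to 0.14 (Sucla2 to Suclg2) and -0.36 to 0.009 (Mdh2 to Mdh1). Without WT replicate 2 the medians of the other cycle subunits (-0.036), pyruvate entry (-0.08) and anaplerosis and exchange (-0.018) were also below 0. Those of the isoforms outside the cycle (0.043) and the assembly factors of succinate dehydrogenase (0.043) stayed above 0.

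With a replicate block the median was 0.26, 7 enzymes were above 0.2 beside 18% of all genes, and 0 were called. Libraries of the same number did not deviate together (r = 0.09, -0.14 and -0.09 for numbers 1, 2 and 3), so equal numbers were taken as names only. Groups of 3 mice cannot give an exact p under 0.1.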
